A study of Mus musculus with 10 samples.

Results

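Ciita and 9 genes of the MHC class II pathway were followed through the osteocyte transcriptomes of 10 mice. The 10 genes were taken by name from the 22548 genes of the count table: the transactivator Ciita, the class II chains H2-Aa, H2-Ab1 and H2-Eb1, the invariant chain Cd74, and the peptide-loading genes H2-DMa, H2-DMb1, H2-DMb2, H2-Oa and H2-Ob. All 10 were among the 16186 genes that passed the filter on low counts. Osteocytes were collected from male C57BL/6 mice aged 8 weeks, with 1 RNA-seq library per mouse. The 5 MM mice had received murine myeloma vk12598 cells, a Vk*MYC plasma cell tumor line, by injection into the femur. The 5 No MM mice had received no myeloma cells. The cells came from bone pieces after removal of the marrow and repeated collagenase and EDTA digestion, and no sorting step was described for them. Mice are called here by the numbers in their labels, 1 to 5 in No MM and 6 to 10 in MM. Ciita was singled out by the study on these same libraries, so its difference between the groups here is not independent evidence.

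MHC class II molecules are pairs of an alpha and a beta chain that carry peptides from the endosome to the cell surface for CD4+ T cells. They are made chiefly by dendritic cells, B cells and macrophages, and can be induced in other cells by interferon γ. CIITA does not bind DNA itself. It docks on a complex of RFX, CREB and NF-Y proteins that sits on the S, X and Y boxes before class II genes, and the amount of CIITA is the usual limit on their transcription. CD74 blocks the groove of new class II molecules and guides them to the endosome, H2-DM exchanges its last fragment for peptides, and H2-O restrains H2-DM.

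The depth was similar in the 10 libraries, with between 31099174 and 39466332 reads counted on genes, and the limit of detection was set at 3 reads, or 0.0709 to 0.114 CPM (read counts relative to library size, as edgeR's cpm gives them after TMM scaling). The limit covers counting error only. Among the No MM mice, the libraries labelled 3 and 4 stood apart, because 26.8% and 29.3% of their reads fell on immunoglobulin genes, against 0.644% to 3.98% in the other 8. Their summed level of 7 plasma cell markers was 9265 and 9283 CPM, against 583 to 1266 CPM elsewhere, although the labels give myeloma cells to the MM mice alone. All 7 plasma cell markers were lower in MM at an unadjusted edgeR p under 0.05, where the share over all genes was 10.3%. None passed adjustment in edgeR. DESeq2 called 3 of them lower, among 189 genes that it called in either direction. Of these 189 genes 34 were higher, out of 14868 genes with an adjusted p in DESeq2. Whether the labels of these 2 libraries are right, or these control mice carried plasma cells of their own, was not tested, and every difference between MM and No MM below holds for the labels as given. The main comparisons are therefore given with and without both libraries. The 7 osteocyte markers were present in every library, with sums of 317 to 2493 CPM in No MM and 396 to 1755 CPM in MM, and none of them had an unadjusted edgeR p under 0.05. The markers of dendritic cells, B cells and macrophages were present as well, and no gene of these lists was without reads in any library. In such bulk samples, fewer cells of a type and less RNA per cell cannot be told apart.

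Most of the target promoters searched carried the letters of an X and a Y box. RefSeq promoters on GRCm38.p6 were found for 7 of the 10 genes, H2-Oa, H2-DMa, H2-DMb1, H2-DMb2, H2-Ob, H2-Aa and H2-Eb1. The search was for AAC, the core of the X box, followed after 20 to 30 bases by TGATTGG, a Y box, within the 250 bases before each start site. The 7 genes were searched on their own strand only, and the promoters of all genes on either strand. The letters were chosen after these promoters had been read. The following stretches are shown because genes that ran with Ciita among the MM mice and genes that did not both hold them, with AAC and TGATTGG in capitals.
H2-Aa, chr17:34287859-34287932, minus strand: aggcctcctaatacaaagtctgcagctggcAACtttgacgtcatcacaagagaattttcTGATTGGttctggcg
H2-Eb1, chr17:34305748-34305820, plus strand: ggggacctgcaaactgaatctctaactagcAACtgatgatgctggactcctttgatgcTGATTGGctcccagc
H2-DMb1, chr17:34153069-34153142, plus strand: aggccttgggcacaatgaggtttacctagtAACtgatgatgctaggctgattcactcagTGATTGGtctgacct
H2-DMb2, chr17:34145098-34145171, plus strand: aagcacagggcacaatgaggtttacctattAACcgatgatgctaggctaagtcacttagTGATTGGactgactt
H2-Oa, chr17:34092275-34092348, plus strand: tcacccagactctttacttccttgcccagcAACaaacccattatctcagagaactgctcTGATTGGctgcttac
H2-Ob, chr17:34238790-34238860, plus strand: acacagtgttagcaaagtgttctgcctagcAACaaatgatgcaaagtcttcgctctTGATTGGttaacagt

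These 6 genes held the pair of boxes with 23 to 26 bases between AAC and TGATTGG, and the end of TGATTGG lay 38 bases (H2-Oa) to 85 bases (H2-DMb2) before the start site. The 2 RefSeq windows of H2-DMa did not hold these letters on the strand of the gene. They end at 34122881 and 34125567, well before the start of H2-DMa in the count table at 34135182. The bases just before that start were not searched. Among all 32817 promoters, TGATTGG was found on either strand in 7.22% and the spaced pair in 0.908%, a wider search than that of the 6 genes. A match is a description of the letters and not a measured binding site. In the count table, Ciita (ENSMUSG00000022504) spans chromosome 16 from 10488178 to 10527564 on the plus strand. The 8 H2 genes lie on chromosome 17, from the start of H2-Oa at 34092340 to the end of H2-Eb1 at 34316199, and Cd74 lies on chromosome 18. The spans of H2-DMb1 and H2-Oa were identical in the GRCm38 annotation GENCODE M21, and the other 8 differed from it at one end or both.

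Ciita was higher in every MM mouse than in any No MM mouse. Its level was 14.6, 20.6, 9.76, 9.25 and 19.2 CPM in No MM 1 to 5 and 31.5, 38.6, 35.5, 27.2 and 22.2 CPM in MM 6 to 10. The groups did not overlap, but the highest No MM mouse (No MM 2) and the lowest MM mouse (MM 10) were close, and the lowest values were those of No MM 3 and No MM 4. Averaged over 5 mice each, No MM stood at 14.7 ± 5.24 CPM and MM at 31.0 ± 6.54 CPM (mean ± SD), a 2.11-fold difference (95% interval 1.41 to 3.16). The two-sided exact permutation test over the mice gave p = 0.00794, the smallest value that 5 against 5 mice allow. Over all genes tested, 0.729% had all MM libraries above all No MM libraries. In edgeR's quasi-likelihood test the log2 fold change was 1.08 (standard error 0.27), with an unadjusted p of 0.00193 and a Benjamini-Hochberg adjusted p of 0.315 over all 16186 genes. DESeq2 gave a log2 fold change of 1.09 (adjusted p = 0.0335), so the call for Ciita depended on the tool. Without No MM 3 and No MM 4 the log2 fold change was 0.75 (edgeR, adjusted p = 0.643).

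For the class II chains no difference between the groups was detected beyond the spread between mice. H2-Aa, the alpha chain of I-A, was at 717, 530.4, 225, 149 and 379 CPM in No MM 1 to 5 and at 572, 863, 597, 403 and 261 CPM in MM 6 to 10. H2-Ab1, its beta chain, was at 652, 449, 207, 140.0 and 303 CPM in No MM and at 481, 776, 539, 328 and 209 CPM in MM. The ranges overlapped for both chains, and No MM 1 stood second only to MM 7 in each. H2-Eb1, the beta chain of I-E, was at 535, 427, 235, 163 and 268 CPM in No MM and at 459.7, 698, 481, 295 and 187 CPM in MM. C57BL/6 mice make no I-E alpha chain, and H2-Ea was not analyzed here. The log2 fold changes were 0.43 for H2-Aa (standard error 0.44), 0.42 for H2-Ab1 (0.45) and 0.38 for H2-Eb1 (0.40 in edgeR, adjusted p from 0.667 to 0.683 for the 3 genes). The 95% interval of H2-Aa ran from a 0.688-fold to a 2.64-fold level in MM, so neither no change nor the size seen for Ciita lay outside it.

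The differences in the means of the chains depended on which No MM mice were counted. H2-Aa averaged 187 CPM in these 2 libraries and 542 ± 169 CPM (SD, n = 3) in No MM 1, 2 and 5, against 539 ± 227 CPM (SD, n = 5) in MM. The MM mean was thus 0.995 times that of the other 3 No MM mice for H2-Aa, 0.998 times for H2-Ab1 and 1.03 times for H2-Eb1, whereas that of Ciita was 1.71 times as high. Without the 2 libraries, edgeR's log2 fold changes were -0.03 for H2-Aa, -0.03 for H2-Ab1 and 0.02 for H2-Eb1. No MM 1 had the highest level of each chain in its group. Without No MM 1 instead, the log2 fold changes were 0.75, 0.77 and 0.63 (edgeR unadjusted p = 0.115, 0.107 and 0.146). Those of H2-DMb1 and H2-Oa were then 0.75 and 1.05 (edgeR unadjusted p = 0.0451 and 0.0348, adjusted p = 0.343 and 0.328), and that of H2-Ob was 0.43. No gene passed adjustment in that fit.

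Cd74 went the other way. It was at 1813, 1342.5, 4623, 3177 and 675 CPM in No MM 1 to 5 and at 1119.8, 1873, 1092, 891 and 589 CPM in MM 6 to 10. The 2 highest values belonged to No MM 3 and No MM 4, the libraries with the lowest H2-Aa levels, and the other 8 overlapped. Over 5 mice each, No MM averaged 2326 ± 1578 CPM and MM 1113 ± 475 CPM (mean ± SD). Its log2 fold change was -1.06 (standard error 0.51, edgeR adjusted p = 0.371), and the exact permutation test gave p = 0.143. In No MM 3 and No MM 4 Cd74 averaged 3.05 times its level in the other 3 No MM mice, and without these 2 libraries its log2 fold change was -0.23. The plasma cell markers and the immunoglobulin share moved with Cd74 in the same 2 libraries, and their part in its level was not tested.

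The H2-DM genes encode the peptide exchanger, whose alpha chain comes from H2-DMa and whose beta chain comes from H2-DMb1 or H2-DMb2. H2-DMa was at 83.4, 57.0, 53.1, 44.3 and 38.7 CPM in No MM 1 to 5 and at 46.7, 88.2, 74.0, 46.4 and 34.7 CPM in MM 6 to 10, with a log2 fold change of 0.07 (standard error 0.29). H2-DMb1 was at 76.0, 44.0, 22.8, 19.9 and 40.4 CPM in No MM and at 49.8, 78.9, 65.2, 38.4 and 34.3 CPM in MM, with a log2 fold change of 0.39 (standard error 0.37). Both overlapped widely between the groups, with edgeR adjusted p of 0.926 and 0.636. H2-DMb2 was at 15.7, 20.7, 1.84, 2.11 and 13.3 CPM in No MM and at 24.9, 19.6, 16.4, 26.1 and 22.1 CPM in MM. It was the most uneven of the members in No MM, where No MM 3 and No MM 4 averaged 0.119 times the level of the other 3. Over 5 mice each, No MM averaged 10.7 ± 8.42 CPM and MM 21.8 ± 3.94 CPM (mean ± SD), a log2 fold change of 1.02 (standard error 0.59, edgeR adjusted p = 0.444; exact permutation test, p = 0.0317). Without No MM 3 and No MM 4 its log2 fold change was 0.38 (edgeR unadjusted p = 0.114). H2-DMb1 and H2-DMb2 are near copies, and 15.7% and 15.9% of the 76-base stretches of their GENCODE M21 transcripts were shared between genes, so their reads could have been split between them.

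The H2-O genes encode the inhibitor of H2-DM, found mainly in B cells and some dendritic cells. H2-Oa, the alpha chain, was at 11.0, 10.5, 2.71, 2.40 and 5.90 CPM in No MM 1 to 5 and at 10.7, 13.6, 9.36, 12.05 and 10.2 CPM in MM 6 to 10. Its low values were again those of No MM 3 and No MM 4, and No MM 1 and 2 lay within the MM range. The log2 fold change was 0.78 (standard error 0.43, edgeR adjusted p = 0.423; exact permutation test, p = 0.0794) and was 0.26 without these 2 libraries. H2-Ob, the beta chain, was at 11.4, 23.0, 25.6, 29.4 and 21.6 CPM in No MM and at 34.5, 21.1, 20.0, 49.5 and 43.2 CPM in MM, with a log2 fold change of 0.60 (standard error 0.32, edgeR adjusted p = 0.406). Unlike its partner, H2-Ob was not low in No MM 3 and No MM 4, where it averaged 1.48 times the level of the other 3 No MM mice. Of the 76-base stretches of H2-Oa, 11.7% were shared with BC051537 on the opposite strand, and the strand setting of the counting is not given in the sources used here.

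**Figure D1:**
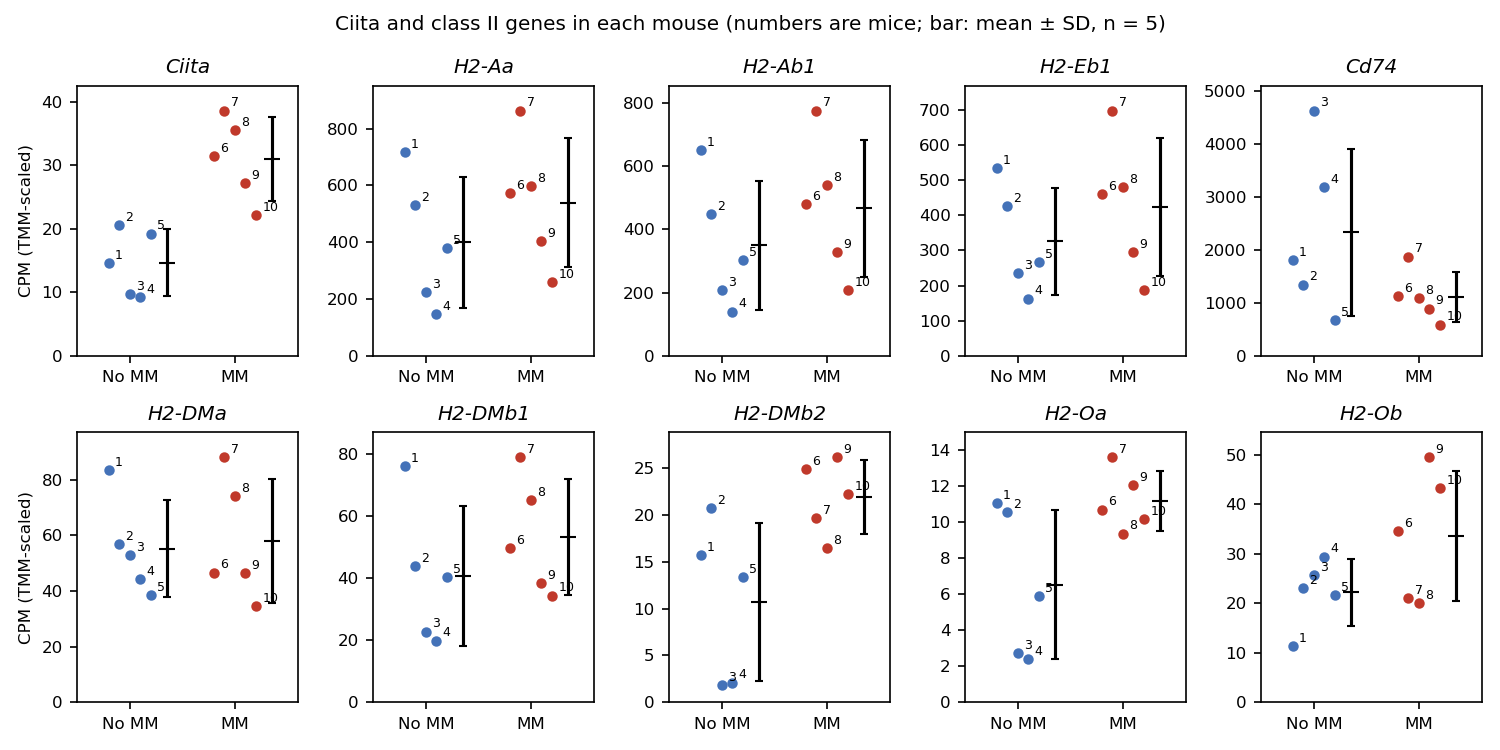
CPM of Ciita and the 9 class II genes in each mouse, on linear axes from 0, with blue points for No MM 1 to 5, red points for MM 6 to 10 and black bars for the mean ± SD (n = 5). Ciita is the only one of the 10 genes in which all MM mice lie above all No MM mice, and Cd74 is highest in No MM 3 and No MM 4.

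Of the 10 genes, 9 had a positive and 1 a negative log2 fold change, with a median of 0.42 against -0.03 over all genes tested. None passed an adjusted p of 0.05 in edgeR, as no gene of the table did (0.0%). At an unadjusted p under 0.05 edgeR called 1 gene, Ciita, higher in MM, where the share over all genes was 3.81%, and none lower, where it was 10.3%. Of the 10 genes DESeq2 called Ciita, and its share of genes called higher was 0.229%. The directions were not stable. Without No MM 3 and No MM 4 the log2 fold changes of H2-Aa, H2-Ab1, H2-DMa and H2-DMb1 were below 0, between -0.07 and -0.03. Only Ciita and H2-Ob then had an unadjusted edgeR p under 0.05, and H2-Ob had a log2 fold change of 0.84 with an unadjusted p of 0.0481 and an adjusted p of 0.643. The share of all genes under this threshold was not taken in that fit, so this count has no background beside it.

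**Figure D2:**
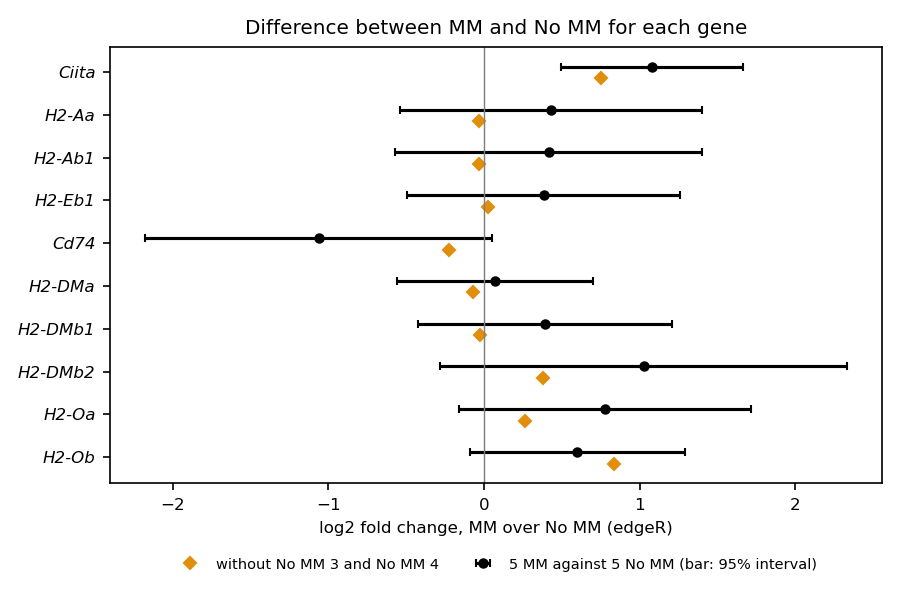
Log2 fold change of each gene, MM over No MM, from edgeR over all 10 libraries (black points, bars for 95% intervals) and without No MM 3 and No MM 4 (orange diamonds, drawn without intervals). The interval of Ciita, 0.49 to 1.66, lies above 0 and the other 9 include it, and the diamonds of H2-Aa, H2-Ab1, H2-Eb1, H2-DMa and H2-DMb1 lie near 0.

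Whether a target differed between the groups by another amount than Ciita was tested as the log2 ratio of target to Ciita in each mouse. Ciita was picked on these same libraries as higher in MM, so a lower ratio in MM was favored beforehand for any gene. For H2-DMb1, the ratio of length-scaled levels was 19.6, 7.97, 8.74, 8.04 and 7.85 in No MM 1 to 5 and 5.92, 7.65, 6.87, 5.29 and 5.80 in MM 6 to 10. All MM mice lay below all No MM mice, and the log2 ratio was lower by 0.63 on average (-0.63, exact permutation test, two-sided, p = 0.00794). Ciita itself had all MM above all No MM mice. The share of all genes with a ratio separated in this way was not taken. The difference in log2 ratio was -0.75 for H2-Eb1 (exact p = 0.0476), -1.99 for Cd74 (exact p = 0.0238) and -1.09 for H2-DMa (exact p = 0.0238). It was -0.59 for H2-Aa (exact p = 0.0794) and -0.64 for H2-Ab1 (exact p = 0.0635), which did not pass. The ratios of H2-DMb2 (0.48, exact p = 0.405), H2-Oa (-0.09, exact p = 0.802) and H2-Ob (-0.55, exact p = 0.341) did not differ beyond the spread between mice. Thus 4 of 9 targets passed, unadjusted, all with a lower ratio in MM. By the same test 61.9% of all genes tested had a lower ratio to Ciita in MM, a larger share than among the targets. The count therefore shows nothing particular to the targets. The number of targets that passed was 1, H2-DMb1, without No MM 3 and No MM 4 (-0.77, exact p = 0.0357, the smallest that 3 against 5 mice allow). The differences were then -0.83 for H2-Aa, -0.83 for H2-Ab1, -0.79 for H2-Eb1 and -0.81 for H2-DMa, of a size similar to that over all mice or larger except for H2-DMa, and that of Cd74 was -0.94. Without No MM 1 they were -0.38 for H2-DMb1 (exact p = 0.0159), -0.34 for H2-Aa and -0.38 for H2-Ab1. The number of targets that passed lay between 3 and 6 when each mouse was left out in turn, with 6 without MM 7 or without No MM 4. The share over all genes was not taken with mice left out.

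Mouse by mouse, the agreement with Ciita differed between the targets and between the groups. Among the MM mice, Ciita ran in the order 7, 8, 6, 9, 10 from high to low. H2-Aa, H2-Ab1, H2-Eb1, H2-DMa and H2-DMb1 ran in exactly this order, and Cd74 differed from it only in the close values of mice 6 and 8. H2-DMb2 (9, 6, 10, 7, 8), H2-Oa (7, 9, 6, 10, 8) and H2-Ob (9, 10, 6, 7, 8) ran in other orders, and the 2 MM mice with the most Ciita, 7 and 8, had the least H2-DMb2. Among the No MM mice, Ciita ran in the order 2, 5, 1, 3, 4, whereas H2-Aa, H2-Ab1, H2-Eb1, H2-DMb1 and H2-Oa shared the order 1, 2, 5, 3, 4. No MM 1 had Ciita near the mean of its group (14.6 CPM) and the most H2-Aa in it (717 CPM). Cd74 ran in the order 3, 4, 1, 2, 5.

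**Figure D3:**
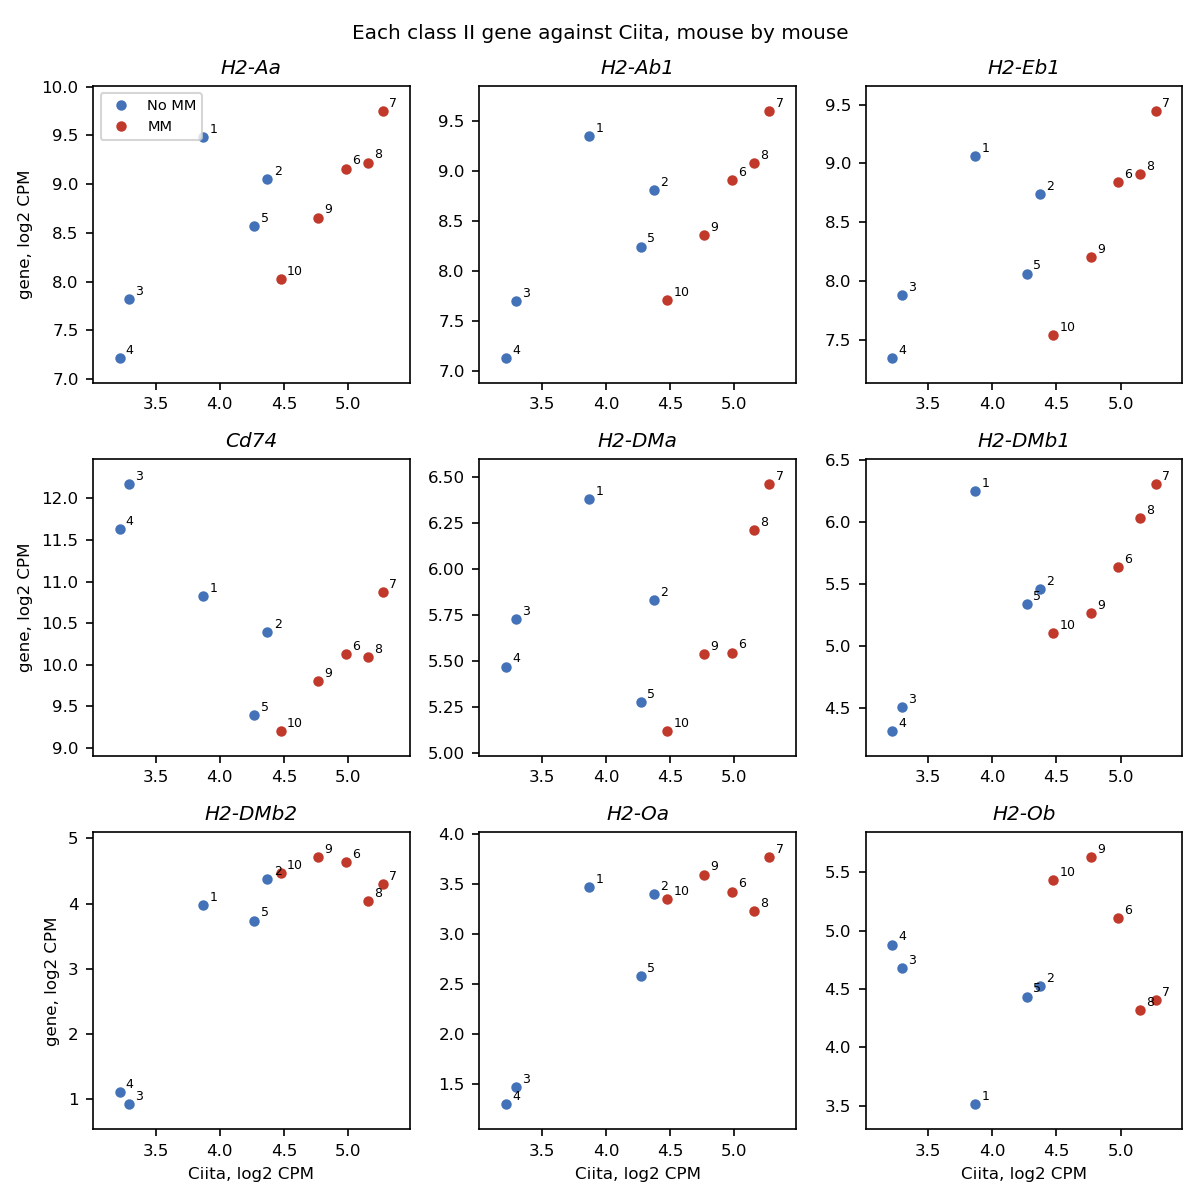
Log2 CPM of each target against log2 CPM of Ciita, 1 point per mouse (blue No MM, red MM, numbers are the mice). The red points of H2-Aa, H2-Ab1, H2-Eb1, H2-DMa and H2-DMb1 rise with Ciita in the order 10, 9, 6, 8, 7, blue point 1 sits above the other mice of similar Ciita, and No MM 3 and No MM 4 form a separate pair at the low end.

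Over the 10 mice, log2 CPM of the targets was correlated with that of Ciita, a relation that also holds the difference between the groups and in which both values share a library and its scaling. Pearson's r was highest for H2-DMb2, at 0.84 (permutation p = 0.00414), with Spearman's rho of 0.67 (permutation p = 0.0395). H2-Oa had an r of 0.83 (permutation p = 0.00453) and a rho of 0.65 (permutation p = 0.0494). H2-Aa had an r of 0.73 (permutation p = 0.0165) and a rho of 0.68 (permutation p = 0.0339). For H2-DMb1, H2-Ab1 and H2-Eb1, r was 0.72, 0.69 and 0.64 (permutation p = 0.0198, 0.0285 and 0.0479) and rho was 0.65, 0.68 and 0.64 (permutation p = 0.0488, 0.0339 and 0.0542). For H2-DMa, H2-Ob and Cd74, r was 0.27, 0.14 and -0.62 (permutation p = 0.448, 0.693 and 0.0595) and rho was 0.35, -0.04 and -0.38 (permutation p = 0.329, 0.918 and 0.280). Of all genes tested, 14.2% had a positive r at an unadjusted p under 0.05, and 2.00% had an r as high as that of H2-DMb2. No target passed after Benjamini-Hochberg adjustment over all genes, where the smallest adjusted p of a target was 0.0598 for H2-DMb2 (permutation test) and 1.22% of genes passed.

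The mice farthest from the median of Ciita were No MM 3 and No MM 4. Without them r over 8 mice lay between 0.11 (Cd74) and 0.39 (H2-DMb2). It fell for 7 targets, from 0.73 to 0.29 for H2-Aa, turned from -0.62 to 0.11 for Cd74 and was higher for H2-Ob (0.35). The higher values of r across the 10 mice, and the negative one of Cd74, thus rested on these 2 libraries. Among the MM mice alone, r was 0.98 for H2-Aa, 0.99 for H2-Ab1, 0.99 for H2-Eb1 and 0.97 for H2-DMb1. In these mice r was 0.95 for H2-DMa and 0.94 for Cd74, but 0.30 for H2-Oa, -0.54 for H2-DMb2 and -0.86 for H2-Ob. The values of r within MM were not tested, and the share of all genes with such an r was not taken.

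To separate the mice from the groups, log2 CPM of Ciita was entered beside the group in edgeR. A slope of 1 means that a target changed in proportion to Ciita among mice of 1 group. The slope was 1.55 for H2-Aa (standard error 0.42), 1.52 for H2-Ab1 (0.45), 1.27 for H2-Eb1 (0.41), 1.20 for H2-DMb1 (0.38), 1.90 for H2-DMb2 (0.68) and 1.22 for H2-Oa (0.47). These 6 of 9 slopes were positive at an unadjusted p under 0.05, with 9.95% of all genes. None of the 9 passed an adjusted p of 0.05, as no gene did (0.0%), and edgeR's smallest adjusted p among them was 0.0993 for H2-Aa. The slopes of H2-DMa (0.52), Cd74 (-0.90) and H2-Ob (-0.62) had intervals that included 0. Single libraries decided the count. Without No MM 1, 3 targets passed in edgeR, H2-Aa (slope 1.44, adjusted p = 0.0417), H2-DMb1 (1.09, 0.0417) and H2-Ab1 (1.38, 0.0460), against 0.85% of all genes called with a positive slope in that fit. Without No MM 4 the number at an unadjusted p fell from 6 to 3, and without both No MM 3 and No MM 4 it was 0. The share of all genes at an unadjusted p was not taken in these fits. In the fit without both libraries the slope of H2-Aa was 1.15 (edgeR unadjusted p = 0.137), and those of H2-Ab1, H2-Eb1, H2-DMb1 and H2-DMa were 1.24, 1.37, 0.66 and 0.80. The slope of H2-DMb2 turned from 1.90 to -0.24, that of H2-Oa from 1.22 to -0.0099 and that of Cd74 from -0.90 to 0.93, and that of H2-Ob was -0.84.

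Levels can be compared between genes as CPM per kilobase of the length in the table. Cd74 was the highest in every library, where No MM averaged 1649.8 ± 1119 and MM 789 ± 337 CPM per kilobase (mean ± SD over 5 mice each, in this order for the genes that follow). H2-Aa (353 ± 203 and 476 ± 200.2), H2-Ab1 (289 ± 169 and 385 ± 178) and H2-Eb1 (275 ± 128 and 358 ± 165) came next. H2-Aa was above H2-Ab1 in all 5 mice of each group, and H2-Ab1 was above H2-Eb1 in 5 of 5 MM and 3 of 5 No MM mice. The H2-DM genes H2-DMa (35.6 ± 11.1 and 37.3 ± 14.3 CPM per kilobase) and H2-DMb1 (28.9 ± 15.98 and 38.0 ± 13.3) did not keep an order between them, nor did H2-DMb2 (7.23 ± 5.68 and 14.7 ± 2.66) and H2-Ob (8.31 ± 2.53 and 12.6 ± 4.91). H2-Oa (5.29 ± 3.36 and 9.07 ± 1.36) was above Ciita in all 10 mice. Ciita (2.80 ± 0.998 and 5.90 ± 1.24) had the lowest mean of each group and the lowest level of every mouse except No MM 3 and No MM 4, where H2-DMb2 was lower (1.24 and 1.42, against 1.86 and 1.76 CPM per kilobase for Ciita).

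Partners of 1 protein kept different degrees of balance. H2-Aa stood to H2-Ab1, per length, at 1.18, 1.26, 1.16, 1.14 and 1.34 in No MM 1 to 5 and at 1.27, 1.19, 1.18, 1.31 and 1.33 in MM 6 to 10. This ratio was steady in every mouse, the 2 libraries rich in immunoglobulin reads included, and no difference between the groups was detected (exact permutation test, p = 0.349). Cd74 stood to H2-Ab1 at 2.39, 2.57, 19.2, 19.5 and 1.91 in No MM and at 2.00, 2.07, 1.74, 2.33 and 2.42 in MM. Cd74 exceeded H2-Ab1 in all 10 mice, by far the most in No MM 3 and No MM 4, and the SD of the log2 ratio was 1.70 in No MM and 0.19 in MM (difference of means -1.35, exact permutation test, p = 0.103, and -0.12 with p = 0.464 without these 2 libraries). H2-DMa stood to H2-DMb1 plus H2-DMb2 at 1.95 and 1.82 in No MM 3 and No MM 4 and at 0.566 to 0.828 in the other 8 mice (difference of mean log2 ratios -0.68, exact permutation test, p = 0.103, and -0.16 with p = 0.464 without No MM 3 and No MM 4). H2-Oa stood to H2-Ob at 0.234 and 0.180 in No MM 3 and No MM 4, at 0.598 to 2.11 in the other No MM mice and at 0.513 to 1.40 in MM (exact permutation test, p = 0.532). The H2-O genes together stood to the H2-DM genes at 0.112 to 0.295 in No MM and at 0.144 to 0.396 in MM (exact permutation test, p = 0.484). None of these 5 ratios differed between the groups at p under 0.05, and Cd74 to H2-Ab1 did without No MM 5 (exact permutation test, p = 0.0317).

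**Figure D4:**
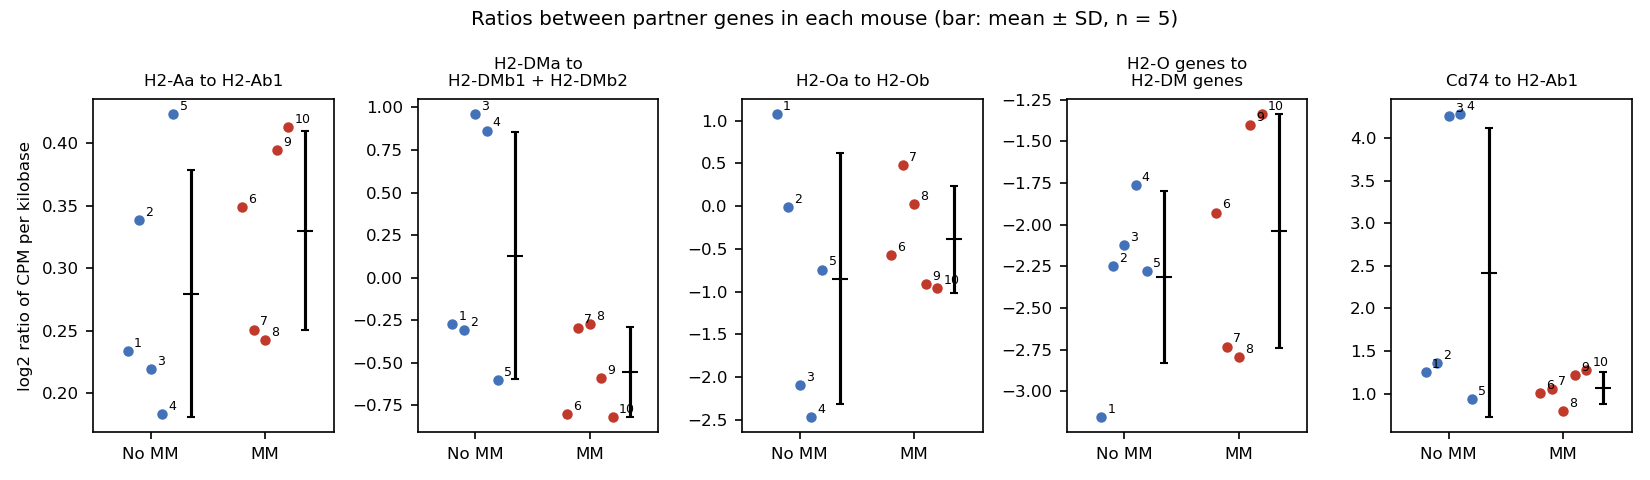
Log2 ratio of length-scaled levels between partner genes in each mouse (points, numbered; bars for mean ± SD, n = 5), each panel with its own axis. No MM 3 and No MM 4 lie apart from the other 8 mice for Cd74 to H2-Ab1, H2-DMa to its beta chains and H2-Oa to H2-Ob, and H2-Aa to H2-Ab1 spans a narrow axis.

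Other genes of the pathway were listed by function. Of the 12 processing and presentation genes, none passed an adjusted p of 0.05 in edgeR or in DESeq2, 5 had a positive and 7 a negative log2 fold change, and the median was -0.14 against -0.03 over all genes. At an unadjusted p under 0.05, 1 (March1) was higher and 1 (Lgmn) was lower in MM, where the shares over all genes were 3.81% and 10.3%. March1, the ubiquitin ligase that removes class II and Cd86 from the cell surface, was at 7.28, 23.6, 12.9, 11.5 and 26.3 CPM in No MM 1 to 5 and at 22.5, 28.9, 60.5, 30.7 and 34.3 CPM in MM 6 to 10. March1 was lowest in No MM 1 and differed by 1.11 on the log2 scale (edgeR, adjusted p = 0.315). Lgmn, an endosomal protease, was at 318, 156, 381, 285 and 166 CPM in No MM and at 186, 179.7, 155, 126 and 143 CPM in MM. Lgmn overlapped between the groups and had a log2 fold change of -0.73 (edgeR, adjusted p = 0.315). The costimulators Cd86, Cd80 and Cd40 had log2 fold changes of 0.43, 0.34 and -0.58, and the cathepsin Ctss had -0.52, none with an unadjusted p under 0.05. H2-Eb2, a further beta gene of the locus, resembled Cd74, with 38.8 and 27.5 CPM in No MM 3 and No MM 4 and 1.98 to 6.77 CPM in the other 8 libraries (log2 fold change -1.53, edgeR adjusted p = 0.389). The neighboring Btnl2 had a log2 fold change of 0.11.

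No difference was detected in the factors on which CIITA docks. None of the 7 genes Rfx5, Rfxap, Rfxank, Creb1, Nfya, Nfyb and Nfyc had an unadjusted edgeR p under 0.05, 4 had a positive and 3 a negative log2 fold change, and their summed level was 264 to 311 CPM in No MM and 261 to 329 CPM in MM. Rfx5, the DNA-binding subunit of RFX, was highest in No MM 3 and No MM 4 at 40.2 and 49.5 CPM, against 15.6 to 31.1 CPM in the other 8.

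The levels of other cell types were read from their markers. The 12 dendritic cell markers summed to between 56.9 and 136 CPM (median 84.0) in No MM and to between 109 and 218 CPM (median 144) in MM (exact permutation test, p = 0.0238), a mean difference of 60.4 CPM that was 45.9 CPM without No MM 3 and No MM 4 (exact permutation test, p = 0.107). Of these 12 genes, 10 had a positive log2 fold change, and 2 had an unadjusted edgeR p under 0.05 (Zbtb46 and Clec9a, both higher). The share over all genes called higher in this way was 3.81%. Clec9a alone had all MM above all No MM (DESeq2 adjusted p = 0.0212). Over all genes, 0.729% were separated in this way, and DESeq2 called 0.229% higher. The study picked Clec9a as a candidate on these same libraries, so its difference here is not independent evidence. The dendritic cell sum ran in the order 8, 6, 7, 9, 10 in MM and 2, 5, 1, 4, 3 in No MM, close to the order of Ciita. In MM 8 the sum held Itgax at 75.1 CPM (19.7 to 28.1 CPM in the other MM mice). It also held Batf3 at 38.8 CPM there (1.59 to 3.51 CPM in the other MM mice). The sum and its test were not taken without Itgax and Batf3. With the mean log2 level of this list in the edgeR fit, the log2 fold change of Ciita was 0.40 (unadjusted p = 0.0707, adjusted p = 0.899). Those of H2-Aa, H2-Ab1 and H2-Eb1 were -0.66, -0.68 and -0.55. The dendritic cell sum itself differed between the groups over all mice, so this fit cannot separate the list from the group.

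The 11 macrophage markers summed to 774 to 2475 CPM in No MM and 1023 to 3343 CPM in MM (exact permutation test, p = 0.460). The log2 fold change was positive in 10, and 1 had an unadjusted edgeR p under 0.05 (Ccr2, higher), where the share over all genes was 3.81%. Their order in No MM, 1, 2, 5, 3, 4, was exactly that of H2-Aa, H2-Ab1, H2-Eb1, H2-DMb1 and H2-Oa, and in MM, 8, 7, 6, 9, 10, it differed from that of the chains only in mice 7 and 8. With this list in the fit the log2 fold change was 0.91 for Ciita (edgeR unadjusted p = 0.00588, adjusted p = 0.388) and 0.13 for H2-Aa. The 10 B cell markers summed to 213 to 439.9 CPM in No MM and 239.9 to 562 CPM in MM (exact permutation test, p = 0.286). The log2 fold change was positive in 8 of 10, and 1 had an unadjusted edgeR p under 0.05 (Cd22, higher), against the same share of 3.81%. Their order in MM, 9, 10, 6, 7, 8, was exactly that of H2-Ob, whereas in No MM, 2, 1, 5, 4, 3, it was not. With the B cell list in the fit the log2 fold change was 0.87 for Ciita (edgeR unadjusted p = 0.00573, adjusted p = 0.814), -0.12 for Cd74 and 0.38 for H2-DMb2. The order of the 7 osteocyte markers in No MM, 2, 5, 1, 3, 4, was that of Ciita, and in MM, 6, 7, 9, 10, 8, it was not. The part of these cell types in the levels of the members was not tested, and the covariate fits given here cannot assign it.

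**Figure D5:**
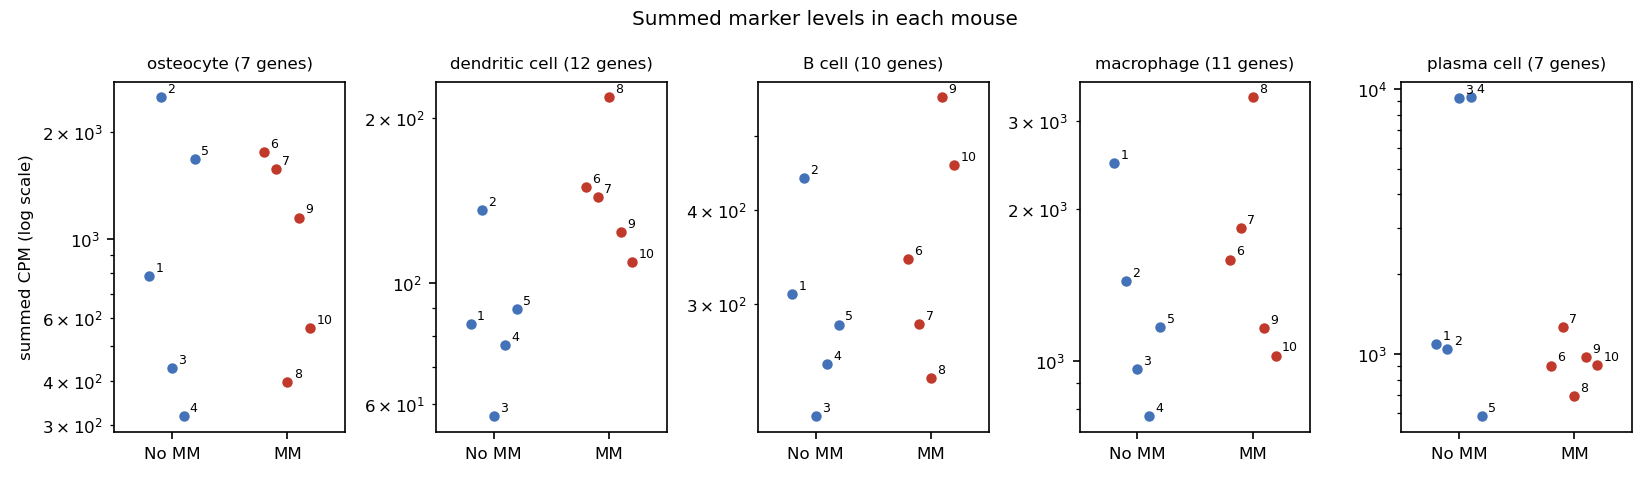
Summed CPM of each marker list in each mouse (log axes, blue No MM, red MM, numbers are the mice). No MM 3 and No MM 4 stand at 9265 and 9283 CPM for the plasma cell list, 3 of 5 MM mice lie above all No MM mice for the dendritic cell list, and No MM 1 and MM 8 lead their groups for the macrophage list.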

How the data were processed

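Osteocyte RNA of 5 No MM and 5 MM mice was sequenced by the authors with a stranded total RNA kit as paired 76-base reads. The labels name FastQC 0.11.5 and STAR (version not given), and the counting program, strand setting, build and annotation are not given in the sources used here. The authors deposited whole-number read counts per gene, which were used. The authors also deposited a signal in which the counts are divided by size factors, FPKM values, gene lengths, and log2 ratios and p-values of MM over No MM. Of these columns only the gene length was used, and the log2 ratios and p-values are the authors' own comparison.

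After filterByExpr and TMM scaling, counts were tested by glmQLFTest on a glmQLFit model of edgeR 4.0.16 in R 4.3.3 (limma 3.58.1), with Benjamini-Hochberg adjustment over 16186 genes. DESeq2 1.42.0 was run on the same genes. Log2 CPM was computed with 2 as prior count. For single values, the comparison was by two-sided exact permutation tests over the 252 assignments of mice. Correlations used 100000 permutations of mice for every tested gene other than Ciita (scipy 1.17.1). Marker scores were means of log2 CPM. The steps were tested on simulated data first. Positions are those of the table, and shared 76-base stretches came from GENCODE M21 transcripts. Each library is 1 mouse, and p-values set a difference or a relation against the spread between these mice.

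The members, the gene lists and the alternatives were chosen with earlier results of these data known. The named genes were the 10 members, the processing, locus, enhanceosome and marker lists, and the 8 genes with a pattern most like Ciita or the mean of H2-Aa, H2-Ab1, H2-Eb1 and Cd74. Adgre1 and Jchain were matched by identifier under their older symbols, and Cr2, listed under more than 1 identifier, was taken as the one with more reads. Some genes of these lists are not reported here by name. Alternatives were other scalings, filters and prior counts, immunoglobulin genes left out, marker scores as covariates, DESeq2, and mice left out.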

Additional observations from a re-analysis of the deposited data

Results flagged for a closer look

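Of 62 sets of 5 values examined for 1 value far from the other 4, 2 held one, where chance gives about 1 in 20 sets, or 3.1. Both were ratios of a target to Ciita in the same mouse, No MM 1. The length-scaled ratio of H2-Ab1 to Ciita was 194 in No MM 1 and 65.6 to 94.3 in the other No MM mice. The length-scaled ratio of H2-DMb1 to Ciita was 19.6 in No MM 1 and 7.85 to 8.74 in the other No MM mice. In the same mouse the macrophage marker sum was 2475 CPM, the highest of its group, and its part in the ratios was not tested.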

How the results depend on the processing

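No paired analysis was possible because no label matches a No MM mouse (1 to 5) with an MM mouse (6 to 10). The study describes its differential analysis as paired without naming the pairs. Of 666 values recomputed under the alternatives, 610 were classed as the same, 14 as weaker, 13 as stronger and 29 as changed in sign. For values of single genes, ratios and marker sums, the same meant an unchanged direction and side of the threshold. Weaker then meant that a value no longer passed, and stronger that it newly passed. Counts of genes were classed by their size instead, and the median r by its shift. Leaving out mice for the marker sums was chosen after seeing the data. Ciita passed with DESeq2 (log2 fold change 1.09), which made 1 member called, as did an unadjusted p under 0.05 in edgeR (1), and its log2 fold change ran from 0.95 to 1.22 with each mouse left out. Without No MM 3 and No MM 4 the sign changed for the log2 fold changes of H2-Aa (-0.034), H2-Ab1 (-0.030), H2-DMa (-0.069) and H2-DMb1 (-0.030), for the ratios to Ciita of H2-DMb2 (-0.36) and H2-Ob (0.063), and for H2-Aa to H2-Ab1 (-0.0018) and H2-Oa to H2-Ob (-0.50), for the slopes of Cd74 (0.93), H2-DMb2 (-0.24) and H2-Oa (-0.0099) and for the plasma cell marker sum (44.1 CPM), and 1 target differed in its ratio to Ciita. With the dendritic cell score as a covariate it changed for H2-Aa (-0.66), H2-Ab1 (-0.68), H2-Eb1 (-0.55), H2-DMa (-0.34) and H2-DMb1 (-0.48), and with the macrophage score for H2-DMa (-0.22). With each mouse left out, H2-DMa ran from -0.13 to 0.27, the H2-Oa ratio to Ciita from -0.23 to 0.15, the difference in osteocyte marker sum from -260.5 to 284 CPM, the targets with a slope on Ciita from 0 to 3 (3 without No MM 1) and the partner ratios that differed from 0 to 1 (1 without No MM 5). The causes were not tested. With 5 mice a group and a wide spread in No MM, the upper limit of the 95% interval exceeded 2-fold for 7 of the 9 targets.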

Other observations

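The 10 members, and genes with symbols starting Gm or ending Rik, were left out of both rankings below beforehand. Among the other genes tested, those whose log2 CPM was most like that of Ciita over the 10 mice included Ms4a4b (Pearson's r of 0.98), Gimap3, Txk, Samd3, St8sia1, Gpr132 and Klhl18 (0.95). Txk encodes a kinase of the Tec family that acts in T cells, and Gimap3 encodes a GTPase of lymphocytes. The 8 genes most like the mean of H2-Aa, H2-Ab1, H2-Eb1 and Cd74 were Aif1 (0.96), Ccl19-ps1, Prf1, Tigit, Cmklr1, Thy1, Oas1a and Il12rb1 (0.93). Aif1 encodes a calcium-binding protein of macrophages, and Prf1 encodes perforin of cytotoxic lymphocytes. Both lists are descriptions over 10 libraries, chosen for their likeness. The list for Ciita also holds the difference between the groups and that of No MM 3 and No MM 4. In the mean that includes Cd74, the high Cd74 of these 2 libraries was set against their low H2-Aa, H2-Ab1 and H2-Eb1.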
